A study of Mus musculus with 2 samples.

Results

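The keratin gene family was followed in mouse ear skin, in cells from control skin and from skin with allergic contact dermatitis (ACD). Its members were all genes whose symbol is Krt followed by digits only, which gave 47 of the 27998 genes in the count tables. Krt6a, Krt6b, Krt33a and Krt33b carry a letter after the number, fall outside that pattern, and are given as companions. Both libraries came from ICR mice of 7 to 8 weeks. The control library (CTRL) was from healthy ear skin. The ACD library was from mice sensitized on the back with 1% 2,4-dinitrofluorobenzene (DNFB), a protein-reactive hapten, and challenged 6 days later on the ears with 0.2% DNFB, with the ear skin taken 60 hours after the challenge. There was 1 library per group and the number of mice behind each was not given, so no difference has a replicate check and no p-value is printed. Intervals are exact 95% intervals of the unique molecular identifier (UMI) counts and cover counting error only.

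Keratins are the intermediate filament proteins of epithelial cells, and a filament is built from pairs of a type I and a type II chain. In the epidermis the dividing basal cells are known for Krt5 (type II) with Krt14 (type I), and cells that leave the basal layer for Krt1 (type II) with Krt10 (type I). Krt6a, Krt6b, Krt16 and Krt17 are known as stress keratins of wounded or inflamed epidermis and of the hair follicle, Krt15 and Krt79 mark parts of the follicle, and Krt8, Krt18, Krt19 and Krt20 belong to simple epithelia. In the mouse the type I genes lie in a cluster on chromosome 11 and the type II genes on chromosome 15, where the type I gene Krt18 also lies. For example, on mm10 Krt10 spans chr11:99385254-99389364, Krt14 chr11:100203162-100207548 and Krt16 chr11:100246091-100248902, and Krt5 spans chr15:101707070-101712898 and Krt8 chr15:101996698-102004482, all on the minus strand.

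Promoters of 34 of the 47 members were found in the RefSeq table (GRCm38.p6), each reaching from 250 bases before to 50 bases after the start. The 4 printed here were chosen for the cells in which their UMIs lay in the results that follow: Krt5 of basal epithelium, Krt10 of suprabasal epithelium and also of fibroblast-like cells, Krt8 of chondrocyte-like cells, and Krt20, which had UMIs in fibroblast-like cells and none in epithelial-like cells. Capitals mark TATAAA, the TATA box core, on either strand. All 4 genes are on the minus strand, and the sequences run 5′ to 3′ along the gene. They cover chr15:101712856-101713155, chr11:99389315-99389614, chr15:102004293-102004592 and chr11:99438104-99438403 in that order.
Krt5: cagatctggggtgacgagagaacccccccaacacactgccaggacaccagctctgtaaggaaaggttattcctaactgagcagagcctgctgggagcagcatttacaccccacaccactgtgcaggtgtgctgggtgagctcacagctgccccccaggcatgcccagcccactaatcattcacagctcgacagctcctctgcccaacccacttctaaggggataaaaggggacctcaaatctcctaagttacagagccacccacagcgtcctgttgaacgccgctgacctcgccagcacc
Krt10: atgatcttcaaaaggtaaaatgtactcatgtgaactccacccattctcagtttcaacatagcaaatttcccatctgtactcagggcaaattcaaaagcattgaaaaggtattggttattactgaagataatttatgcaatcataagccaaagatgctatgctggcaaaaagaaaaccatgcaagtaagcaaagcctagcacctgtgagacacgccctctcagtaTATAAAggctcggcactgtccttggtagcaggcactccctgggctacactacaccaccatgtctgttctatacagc
Krt8: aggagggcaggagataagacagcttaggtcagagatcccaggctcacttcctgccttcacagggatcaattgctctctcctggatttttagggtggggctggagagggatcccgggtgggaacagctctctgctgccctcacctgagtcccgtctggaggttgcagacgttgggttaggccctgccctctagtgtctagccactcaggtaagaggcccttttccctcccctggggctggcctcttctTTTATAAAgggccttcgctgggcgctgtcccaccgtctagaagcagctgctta
Krt20: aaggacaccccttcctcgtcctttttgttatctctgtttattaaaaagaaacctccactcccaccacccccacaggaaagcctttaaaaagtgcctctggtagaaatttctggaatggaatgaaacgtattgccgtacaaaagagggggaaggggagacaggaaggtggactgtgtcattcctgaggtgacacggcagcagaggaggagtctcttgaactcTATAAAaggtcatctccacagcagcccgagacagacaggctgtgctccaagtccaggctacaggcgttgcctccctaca
TATAAA stood 26 bases before the start in Krt10 and 29 bases before it in Krt20. In Krt8 it overlapped its own reverse complement next to the RefSeq start, which lies inside the gene span given above, and in the Krt5 window these letters were absent. TATAAA was found on either strand in 18 of the 35 promoters of members, against 13.6% of the 32851 promoters in the table. The AP-1 letters TGANTCA were in 2 and the STAT letters TTCNNNGAA in 4 of the members' promoters, against 7.81% and 8.30% of all promoters. A match of letters is a description of the window and not evidence of a bound site.

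After the cell filter (over 200 and under 5000 genes, at most 25000 UMIs, under 8% mitochondrial UMIs), 12213 of 12895 control barcodes and 11665 of 13163 ACD barcodes remained, with median depths of 6850 and 7447 UMIs. The libraries shared 47 cell barcodes among the kept cells. Epithelial cells were first chosen without any keratin, as cells with at least 3 UMIs of Perp, Dsp and Sfn in sum and none of Ptprc, the pan-leukocyte gene. This gate held 555 control and 458 ACD cells, 1013 of 23878, or 4.54% and 3.93% of the kept cells.

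Most gated cells did not cluster with epithelial cells. In clusters made without keratin genes, only 171 control (30.8%) and 119 ACD (26.0%) gated cells lay in the single epithelial-like cluster, whose leading genes were Lgals7, Ly6d, Cst6, Sfn, Krtdap and S100a14. Another 243 and 192 gated cells lay in chondrocyte-like clusters, and 111 and 121 in clusters that could not be named. Gated cells outside the epithelial-like cluster reached the gate mostly through Perp, with 1226 Perp UMIs against 208 of Sfn and 20 of Dsp in control, and 1128, 133 and 16 in ACD. Keratins were 0.0134% and 0.0193% of their UMIs. The 290 gated cells of the epithelial-like cluster are called epithelial-like cells here and carry the main description, a choice made after seeing the data, with the whole gate beside it. Ear skin was digested with collagenase D and DNase1, and how that release weighted the epidermal layers was not tested.

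In the epithelial-like cells, keratins made up 1.72% of all UMIs in control (1.70 to 1.73%) and 2.04% in ACD (2.01 to 2.06%). Over the whole gate the order was the opposite, 0.669% in control and 0.617% in ACD, with 384 of 555 control and 339 of 458 ACD cells from outside the epithelial-like cluster. Per cell, the keratin share ran from 0.0691% through a median of 1.56% to 5.78% in control and from 0.17% through 1.77% to 9.13% in ACD, so the cells of both libraries overlapped over nearly the whole range. Krt14, Krt15 and Krt5 together were 85.7% of the keratin UMIs in control and 84.7% in ACD. Type I keratins outnumbered type II keratins 3.37 to 1 in control and 2.96 to 1 in ACD.

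Of the 47 members, 12 had at least 50 UMIs over both libraries in the epithelial-like cells, 22 had 1 to 49 and 13 had none. Called higher or lower here means a level, in UMIs per 1000000 UMIs of the cells (counts per 1000000, CPM), that differed at least 2-fold between the libraries, with at least 50 UMIs. By that rule Krt1, Krt10, Krt16 and Krt77 were higher in ACD, 4 of 12, beside 2.07% of the 7041 genes with as many UMIs, and no member was lower, beside 2.13%. The median log2 ratio was 0.32 over the 12 members and −0.09 over all those genes. In the whole gate 14 members had 50 UMIs, and Krt16, Krt19 and Krt77 were higher, beside 2.13% of 10570 genes, with none lower, beside 1.17%. There Krt1 and Krt10 came to a log2 ratio of 0.99 each, just under the line.

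**Figure D1:**
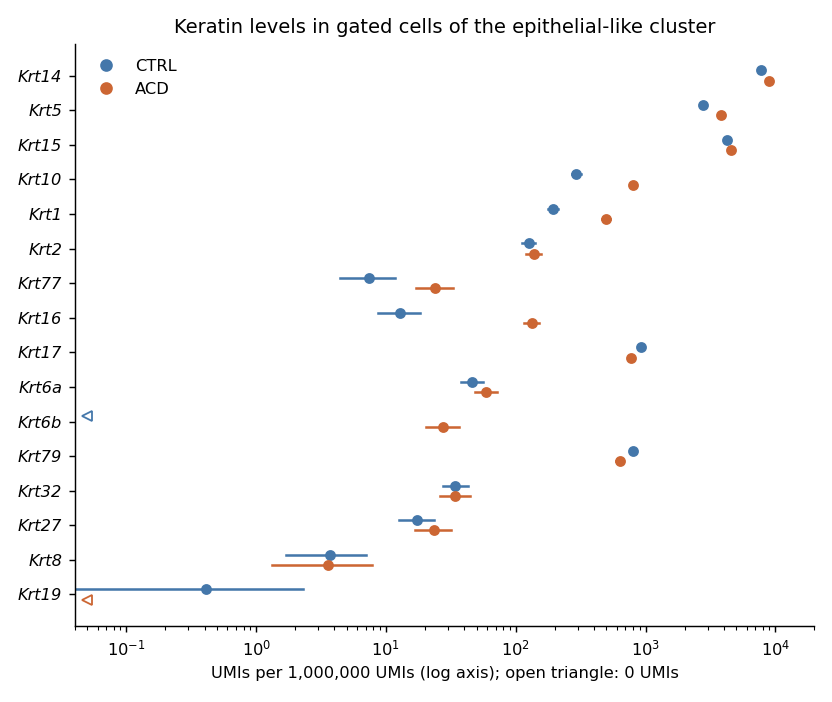
Level of 16 keratins in the epithelial-like cells on a log axis, in UMIs per 1000000 UMIs, with control and ACD side by side. Bars are exact 95% Poisson intervals and an open triangle marks 0 UMIs. Krt14, Krt15 and Krt5 lead in both libraries, and Krt16 has the largest ratio of the members, 12.8 in control and 133 in ACD, while the companion Krt6b is at 0 in control.

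The basal keratins were the most abundant in both libraries and differed little. Krt14, the type I chain of the basal pair, stood at 7703 CPM in control (7593 to 7815) and 8891 in ACD (8748 to 9035), from 18659 and 14828 UMIs. Its log2 ratio was 0.21 (0.18 to 0.24). Krt5, its type II partner, was at 2788 and 3816 CPM, a log2 ratio of 0.45 (0.40 to 0.50). Krt15, a type I keratin of basal cells and of the follicle bulge, was at 4238 and 4528, a log2 ratio of 0.10 (0.05 to 0.14). In the whole gate Krt14 and Krt15 turned direction, Krt14 at 2972 in control and 2664 in ACD and Krt15 at 1639 and 1346, a log2 ratio of −0.28 (−0.33 to −0.24). Krt14 UMIs occurred in 167 of 171 control cells and 117 of 119 cells from ACD, and it was the keratin with the most UMIs in 108 control (63.2%) and 73 ACD cells (61.3%). Krt15 led in 54 and 35 cells. Per cell, the medians were 61.2 and 65.6 Krt14 UMIs per 10000, 22.4 and 29.3 of Krt5, and 34.7 and 21.4 of Krt15, so for Krt15 the typical cell and the summed level went in opposite directions.

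The suprabasal pair was higher in ACD and rested on few cells. Krt10 was at 293 CPM in control (272 to 315) and 798 in ACD (756 to 842), with a log2 ratio of 1.45 (1.31 to 1.58). Krt1, with which Krt10 pairs, was at 194 and 498 CPM, a log2 ratio of 1.36 (1.20 to 1.53). The 2 chains of this pair therefore moved by about the same ratio. Krt10 UMIs were found in 51 control and 43 ACD cells, but 1 cell held 60.1% of them in control and 50.5% in ACD, and the 5 highest cells held 83.5% and 88.4%. For Krt1 a single cell held 55.9% and 52.2%. Without the highest cell of each library the log2 ratios were 1.77 for Krt10 and 1.49 for Krt1. The share of cells with a UMI of the pair differed less than its level. With every cell thinned to 2000 UMIs, which left out 8 shallow ACD cells, Krt10 had a UMI in 8.19% of control cells and in 10.8% of ACD cells (29.8% and 36.1% unthinned, at median depths of 14710 and 14513 UMIs), and Krt1 in 11.7% of both.

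Against the basal pair, the suprabasal pair had a log2 ratio of Krt1 plus Krt10 to Krt5 plus Krt14 of −4.43 in control and −3.29 in ACD. Basal keratin UMIs thus exceeded suprabasal ones in both libraries, by less in ACD. Over the whole gate these values were −4.33 and −3.26. Krt2, a type II keratin of the upper spinous layer, was at 126 and 137 CPM, a log2 ratio of 0.12 whose interval includes 0 (−0.13 to 0.37). A single cell held 39.5% of its UMIs in control and 57.2% in ACD, and without it the log2 ratio was −0.37 (−0.74 to −0.01). Krt77, grouped as a type II suprabasal keratin, had 18 UMIs in control and 40 in ACD, a log2 ratio of 1.69 (0.85 to 2.58). It came from 4 cells in each library, with 82.5% of the ACD UMIs in 1 of them, and without the highest cells its log2 ratio was −0.10.

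Of the stress keratins, Krt16 had the largest ratio of the 12 members and Krt17 was slightly lower in ACD. Krt16, a type I partner of the Krt6 chains, had 31 UMIs in control, 12.8 CPM (8.70 to 18.2), and 221 in ACD, 133 CPM (116 to 151). This was 10.4-fold higher, a log2 ratio of 3.37 (2.83 to 3.96). It was found in 6 control and 15 ACD cells, 3.51% and 12.6%, or 1.17% and 4.505% of cells thinned to 2000 UMIs, and 1 cell held 61.3% and 62.0% of its UMIs. Without those cells the log2 ratio was 3.35. Krt17, the other type I stress keratin and also one of the follicle, was at 918 and 773 CPM in 93 and 74 cells, a log2 ratio of −0.25 (−0.35 to −0.15), and 0.01 without the highest cells. Krt17 and Krt14 shared 5.22% of the 60-base words at their 3′ ends, the most of any member, so few reads could be confused between them. The companion Krt6a was at 46.2 and 59.4 CPM, a log2 ratio of 0.36 whose interval includes 0 (−0.04 to 0.76). Krt6b, its close type II relative, had no UMI in control and 46 in ACD. Set against 3 UMIs in control, it was at least 22.3-fold higher, but 43 of the 46 UMIs were in 1 cell.

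**Figure D2:**
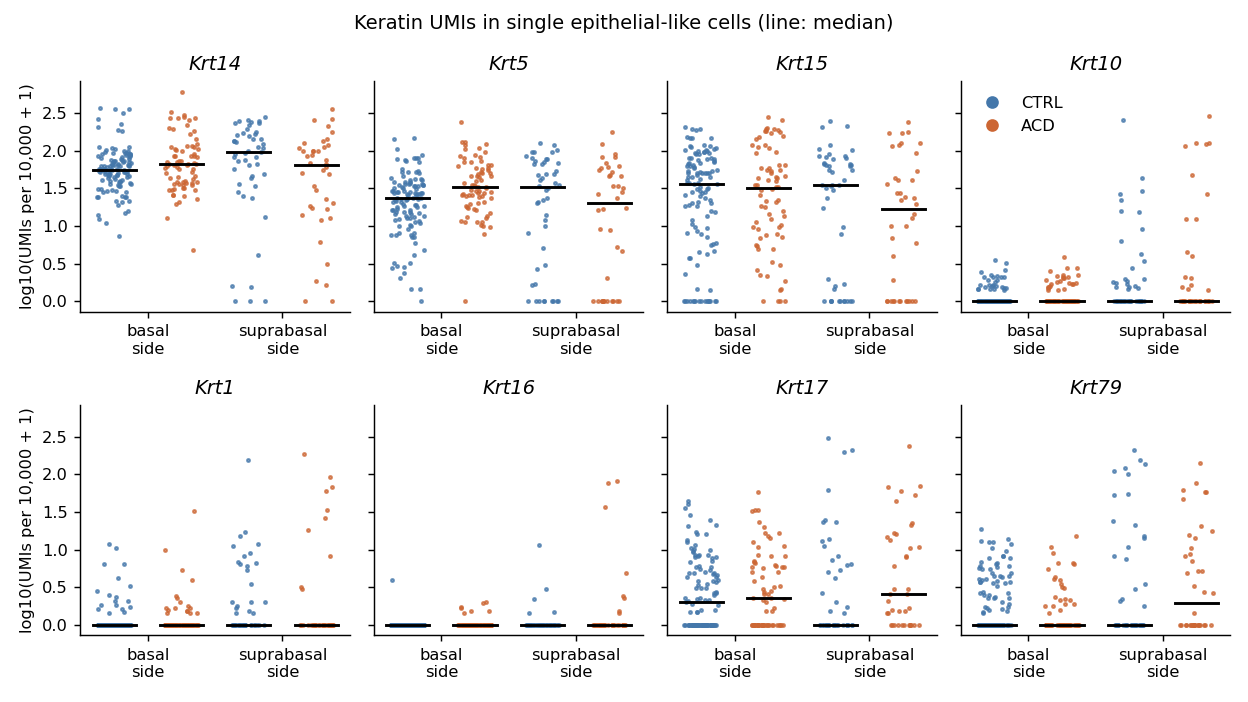
UMIs per 10000 of 8 keratins in each epithelial-like cell, on a log10(x + 1) axis, for cells with more basal or more suprabasal marker UMIs in control and ACD. Each point is a cell and the line is the median. Krt14 fills most cells, while Krt10, Krt1 and Krt16 have a median of 0 over the epithelial-like cells and a few very high cells.

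Among follicle keratins, Krt79, a type II keratin of the upper follicle, was at 801 and 630 CPM in 78 control and 46 ACD cells, a log2 ratio of −0.35 (−0.46 to −0.24). Krt32, a hair cuticle keratin, was at 34.3 and 34.2 CPM, a log2 ratio of 0.00, and of −0.43 without the highest cells (−1.04 to 0.16). Krt27, an inner root sheath keratin, was at 17.3 and 23.4, a log2 ratio of 0.43 (−0.24 to 1.10).

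Members with under 50 UMIs came from few cells. Krt24 had 9 UMIs in control and 40 in ACD, all 40 in 1 cell. Krt35, a hair shaft keratin, had 13 UMIs in 1 control cell and none in ACD, and Krt28 of the inner root sheath had 13 and 2. Krt7, of simple and glandular epithelia, had 8 and 24 UMIs, and Krt78 had 0 and 10. Krt25 had 8 and 0, Krt23 had 14 and 8, Krt13 had 9 and 2, and Krt80 had 8 and 7. The simple-epithelium keratin Krt8 had 9 and 6 UMIs, and Krt19 and Krt18 had 1 in all each. No UMI was found of Krt12, Krt20, Krt34, Krt36, Krt39, Krt40, Krt72, Krt74, Krt81, Krt82, Krt83, Krt84 and Krt86, nor of the companions Krt33a and Krt33b.

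The epithelial-like cells were then sorted by layer markers, without using keratins. Each cell was put on a basal side or a suprabasal side by which of 2 marker lists had more UMIs. The lists were Itga6, Itgb4, Col17a1 and others against Krtdap, Sbsn, Calm4 and others. The basal side held 118 control (69.0%) and 74 ACD cells (62.2%), the suprabasal side 48 (28.1%) and 40 (33.6%), and 5 cells of each library were tied. On the suprabasal side Krt10 was at 1005 CPM in control and 2344 in ACD (log2 ratio 1.22), and Krt1 at 615 and 1415 (1.20). Krt16 lay there too, with 26 of its 31 control and 213 of its 221 ACD UMIs, 38.7 and 385 CPM (log2 ratio 3.32). For Krt10 the highest cell held 63.3% and 51.9% of the UMIs on this side, and for Krt1 63.4% and 55.4%. For Krt16 it held 73.1% and 64.3%. Without the highest cells Krt10 was at 379 and 1178 CPM (1.64), and the log2 ratios were 1.52 for Krt1 and 3.73 for Krt16. On the same side Krt14 was lower in ACD, at 10910 and 7375 CPM (−0.56), as were Krt5 (−0.44), Krt17 (−0.71) and Krt79 (−0.52). For Krt17 1 cell held 40.0% of the control UMIs, and without the highest cells its log2 ratio was −0.28 (−0.44 to −0.13). On the basal side the basal pair was higher in ACD, Krt5 at 2403 and 4362 CPM (0.86) and Krt14 at 6555 and 9694 (0.56). In control the suprabasal side had more of the basal pair than the basal side, with Krt5 at 3733 against 2403 CPM and Krt14 at 10910 against 6555. In ACD the basal side had more of both. The sides are named for their marker lists and were not shown to be layers. Krt6a was at 11.3 and 37.7 CPM on the basal side (log2 ratio 1.74), and on the suprabasal side its log2 ratio was −0.32 with an interval that includes 0 (−0.82 to 0.17). The log2 ratio of the suprabasal to the basal pair was −3.18 and −1.43 on the suprabasal side and −7.39 and −7.51 on the basal side. The markers that set the sides differed between the libraries themselves (log2 ratios of 0.66 for Krtdap, 0.88 for Sbsn and 0.59 for Col17a1), so which cells entered a side may differ between the libraries, and the part this had in the values was not tested.

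The 290 epithelial-like cells fell into 9 sub-clusters, again made without keratin genes. In the sub-cluster led by Sprr1a, Crct1 and Klk6 (15 control and 11 ACD cells), Krt10 was at 2258 CPM in control and 5694 in ACD (log2 ratio 1.33), Krt16 was higher in ACD (2.23), and Krt5 (−2.84) and Krt17 (−1.40) were lower. A single cell held 82.9% of the Krt10 UMIs there in control and 71.3% in ACD, and without it Krt10 was at 417 and 1908 CPM. For Krt16 1 cell held 19 of 20 control and 40 of 68 ACD UMIs, and without them the log2 ratio was 5.25 (2.65 to 10.6). In ACD 1 cell held 51.5% of the Krt5 UMIs, and for Krt17 1 cell held 44.1% in control and 40.5% in ACD. Without the highest cells these log2 ratios were −3.35 for Krt5 and −1.24 for Krt17. The sebaceous-like sub-cluster, led by the lipid genes Scd1, Gsta3 and Plin2 (43 and 18 cells), had the lowest keratin shares, 0.875% and 1.09%. The sub-cluster led by Serpinb2, Fcgbp and Il33 (22 and 5 cells) had the highest Krt2 levels, 1137 and 2275 CPM. A single cell held 42.6% of these Krt2 UMIs in control and 72.4% in ACD, and without it the levels were 719 and 841. The bulge and outer root sheath-like sub-cluster (4 and 13 cells) had the highest Krt15 levels, 16864 and 17034 CPM. One sub-cluster, led by Gbp2, Cxcl9 and H2-Ab1, held 18 ACD cells and no control cell, with Krt14 at 17065, Krt10 at 803 and Krt16 at 419 CPM. Of its 139 Krt16 UMIs 137 were in 1 cell, without which Krt16 was at 6.36 CPM there, and 1 cell held 90.6% of its Krt10 UMIs. Directions were not uniform across sub-clusters. Krt10 was lower in ACD in the sub-cluster led by Serpinb2, Fcgbp and Il33, with a log2 ratio of −0.65 (−1.29 to −0.06). It rested on 138 and 28 UMIs, with 42.8% and 82.1% of them in 1 cell. Without the highest cells the ratio there was −2.05 (−3.71 to −0.77). In the sub-cluster led by Sprr1a the Krt10 ratio was 1.33. Another, with Col1a1 among its leading genes, had a ratio of 3.23, with 69 of its 70 ACD UMIs in 1 cell. Krt1 had 50 UMIs in 2 sub-clusters, at −0.63 (−1.36 to 0.04) in the Serpinb2-led one and 1.20 in the Sprr1a-led one. Krt14 was higher in ACD in 3 and lower in 5 of the 8 with cells of both libraries, Krt15 higher in 2 and lower in 6, and Krt5 higher in 5 and lower in 3. Krt17 was higher in 3 and lower in 4 of the 7 where it had 50 UMIs. Its highest ratio, 1.80 (1.54 to 2.07), was in the sub-cluster led by Hbb-bs, Hba-a1 and Gm13889 (42 and 21 cells).

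**Figure D3:**
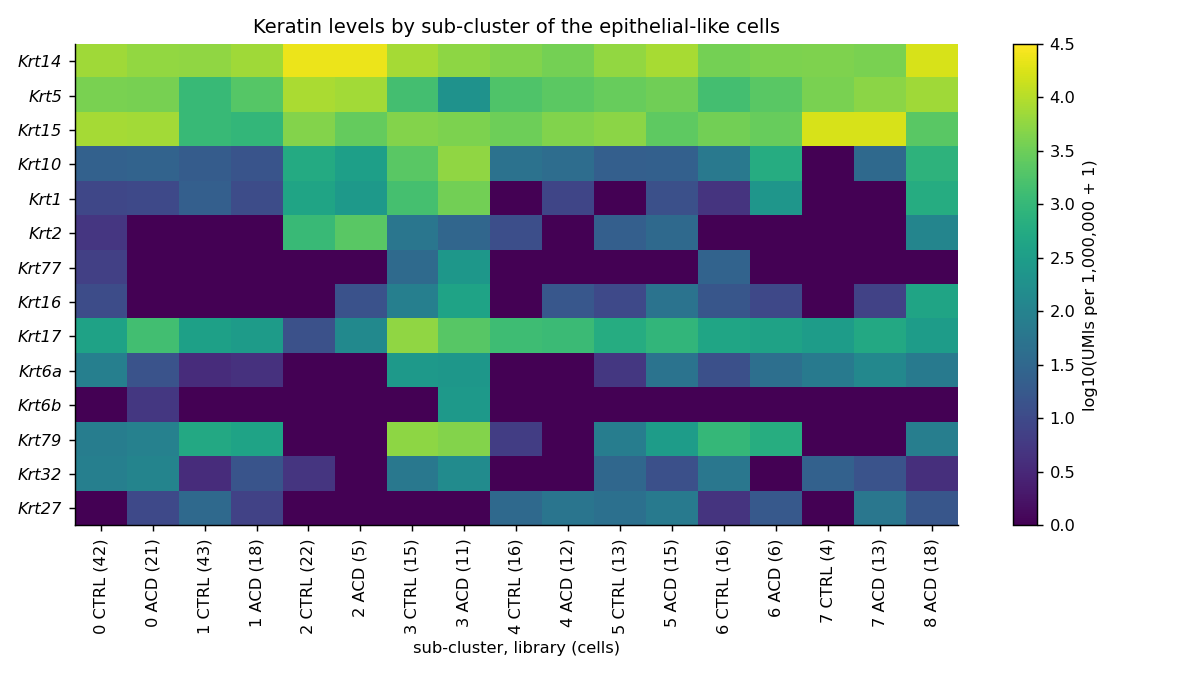
Heatmap of the levels of 14 keratins, in CPM on a log color scale, over the sub-clusters of the epithelial-like cells in control and ACD. The Sprr1a-led sub-cluster has the highest Krt10 levels, 2258 in control and 5694 in ACD, of which 1 cell held 82.9% and 71.3%, and Krt15 is highest in the bulge and outer root sheath-like cells, at 16864 and 17034.

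The upper limits of the cell filter removed many gated barcodes of high depth, more of them in ACD. They were 66 in control and 149 in ACD, with medians of 30520 and 35085 UMIs, and 39 and 114 of them had under 0.5% of their UMIs from 9 stromal genes. Keratins were 1.32% and 1.88% of their UMIs, between the whole gate and the epithelial-like cells. In these barcodes the stress keratins were higher in ACD. Krt16 had 15 UMIs in 8 control barcodes and 828 in 31 ACD barcodes, 6.74 and 128 CPM, a log2 ratio of 4.24 (3.51 to 5.09), with 22.8% of the ACD UMIs in 1 barcode. Krt6a was at 45.8 and 269 CPM (log2 ratio 2.55), and Krt6b had 0 and 99 UMIs. In ACD 1 barcode held 39.9% of the Krt6a UMIs, and without the highest barcodes the Krt6a log2 ratio was 2.37 (2.02 to 2.74). The Krt6b UMIs came from 5 barcodes, with 58.6% in 1 of them. Krt17 was at 555 and 1119 CPM, a log2 ratio of 1.01, and Krt79 was also higher (0.64), both against their direction in the epithelial-like cells. Krt15 was lower in ACD there, at 2519 and 1558 CPM (−0.69). Krt10 and Krt1 were higher in ACD in both sets, by log2 0.68 and 1.04 in the removed barcodes. For Krt1 this value depended on few barcodes, since 1 held 66.3% of its control UMIs. Over the removed barcodes under 0.5% stromal UMIs the ratios were 3.26 for Krt1 (2.88 to 3.67) and 1.04 for Krt10 (0.91 to 1.18). In that subset 1 barcode held 79.6% of the control Krt10 UMIs. Without the highest barcode of each library the ratios there were 3.05 for Krt1 and 2.74 for Krt10 (2.46 to 3.04). Krt16 was thus higher in ACD among kept and removed barcodes alike, while Krt15, Krt17 and Krt79 went in opposite directions in the removed barcodes and the epithelial-like cells.

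**Figure D4:**
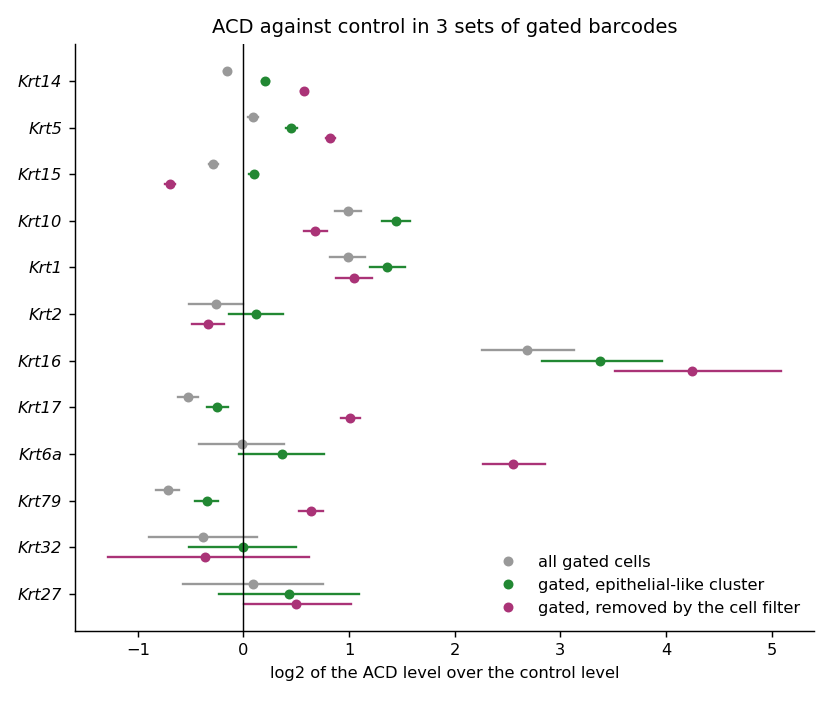
Log2 ratio of ACD to control for 12 keratins in all gated cells, the gated epithelial-like cells and the gated barcodes removed by the cell filter, with exact 95% intervals. Krt16 is above 2 in all 3 sets (2.68, 3.37 and 4.24), and Krt17 is below 0 in the first 2 and at 1.01 in the removed barcodes.

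The keratins' partner genes were read in the same epithelial-like cells from lists of junction, envelope and regulator genes. Of the 7041 genes with at least 50 UMIs in these cells, 2.07% were called higher and 2.13% lower. No call among 9 to 11 genes is near those shares. Of 15 desmosome genes, which anchor keratin filaments between cells, 11 had at least 50 UMIs and none was 2-fold higher or lower, with a median log2 ratio of 0.12. Of 9 hemidesmosome genes, which anchor Krt5 and Krt14 filaments to the basement membrane, all 9 had 50 UMIs and none was called, with a median of 0.15. Of 12 epithelial regulators such as Trp63 and Klf4, 11 had 50 UMIs and none was called (median −0.06). The cornified envelope list lay above the share of all genes called higher. Of its 21 genes 11 had 50 UMIs, 8 were higher and none was lower, with a median of 2.31. Krtdap was at 704 and 1113 CPM (0.66), Calm4 at 419 and 839, and Flg, the filaggrin gene whose product bundles keratin filaments, had 3 UMIs in control and 179 in ACD (6.44). Of 12 genes of activated epidermis 9 had 50 UMIs and 4 were higher, with a median of 0.68. They were S100a8 and S100a9, the calprotectin subunits, with 2 UMIs each in control and 209 and 325 in ACD, and the envelope genes Sprr1b and Sprr2d. The cycling genes of that list were not higher, with log2 ratios of 0.01 for Mki67, −0.54 for Top2a (−1.04 to −0.06) and −0.55 for Pcna (−1.13 to 0.01), and the chemokine gene Cxcl1 was at −0.34. S100a8 and S100a9 are also leading genes of neutrophils, and the part that neutrophil RNA had in their levels was not tested. Vim, the intermediate filament of mesenchymal and immune cells, had a log2 ratio of 0.40.

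Keratins outside the epithelial-like cluster were read against RNA set free from broken epithelial cells. Such RNA was taken to carry keratins into all droplets in 1 ratio. A member was counted as unexpected in a class with at least 20 UMIs there and a high ratio to Krt5 plus Krt14. That ratio had to be at least 3 times the one in the gated cells of the same library. A member with no UMI in the gate was counted on its UMIs alone. The assumed single ratio did not hold in all classes. In ACD, Krt15 and Krt14 had 147 and 145 UMIs in mononuclear phagocyte-like cells but 70 and 496 in T/NK/ILC-like cells. Krt5 plus Krt14 outside the epithelial-like cluster was 10.8 CPM in control and 29.7 in ACD, and was higher in ACD in each of the largest classes, at 7.55 and 22.5 in chondrocyte-like, 7.85 and 23.7 in dermal fibroblast-like and 14.5 and 29.9 in T/NK/ILC-like cells. In chondrocyte-like cells Krt5 and Krt14 were the 2 members called higher, of 8 with 50 UMIs, beside 1.69% of 12434 genes, and none was lower, beside 0.491%. In dermal fibroblast-like cells Krt5, Krt14, Krt17 and Krt19 were higher, 4 of 8, beside 4.27% of 12059 genes, and none was lower, beside 1.15%. Krt14 was lower in ACD in mononuclear phagocyte-like (log2 ratio −1.57) and Schwann-like cells (−0.92). Krt5 and Krt14 are here the measure of free epithelial RNA itself.

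By this rule 14 pairs of a member and a named class in control and 16 in ACD were unexpected. These were 17 different pairs in all, and they came from 7 members. The rule allows for free RNA of epithelial cells only. RNA set free from other cells, such as Krt10 from fibroblast-like or Krt8 from chondrocyte-like cells, could also meet it in a further class. Its part in these pairs was not tested. Krt8, a type II keratin of simple epithelia, was the leading one in chondrocyte-like cells, with 1900 UMIs in 3681 control cells and 1724 in 2574 ACD cells. Its level was 61.3 CPM in control (58.5 to 64.1) and 65.1 in ACD (62.1 to 68.3), with a log2 ratio of 0.09 whose interval includes 0 (−0.01 to 0.18). Krt8 was found in 29.1% and 33.2% of these cells, or 10.5% and 10.9% of cells thinned to 2000 UMIs, against 0.125% and 0.150% of thinned T/NK/ILC-like cells (0.464% and 0.495% unthinned, at median depths of 3538 and 5273 UMIs against 7786 and 9601.5). The rule also picked Krt8 in the T/NK/ILC-like cells of ACD, at only 21 UMIs and 0.94 CPM. In dermal fibroblast-like cells it picked Krt8 as well, with 42 UMIs in control and 30 in ACD. Only 0.358% and 0.244% of all Krt8 UMIs lay in the epithelial-like cluster. Krt18, the type I partner of Krt8, was also found in the chondrocyte-like cells, at 4.68 and 5.44 CPM from 145 and 144 UMIs. The unnamed cluster led by Coch and Crabp1 had Krt8 at a higher level, 75.8 and 113 CPM. In the unnamed clusters 13 pairs in control and 10 in ACD were unexpected, from 3 members (Krt8, Krt10 and Krt17).

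Krt16 and Krt17 were also unexpected in chondrocyte-like cells, and both were higher there in ACD. Krt16 had 296 and 423 UMIs in 74 and 79 cells, 9.54 and 16.0 CPM, a log2 ratio of 0.74 (0.53 to 0.96). Of these, 255 and 370 UMIs were in the cluster with Eln, Dgat2, Col9a3 and Col10a1 among its leading genes, at 29.5 and 51.2 CPM. Krt17 was at 12.7 and 18.5 CPM (log2 ratio 0.55), with 188 and 309 UMIs in the same cluster. As a result, the epithelial-like cluster held only 8.81% of the control library's Krt16 UMIs and 31.6% of those in ACD. Krt17 was also unexpected in smooth muscle-like cells in control, with 22 UMIs in 9 cells, 12 of them in 1 cell.

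Krt10 was the keratin of dermal fibroblast-like cells. It had 1580 UMIs in 3170 control cells and 824 in 1304 ACD cells, 58.8 CPM (55.9 to 61.8) and 52.8 (49.2 to 56.5), and was found in 31.7% and 36.3% of cells. In thinned cells the shares were 10.8% and 9.39%, against 2.37% and 1.20% of thinned T/NK/ILC-like cells. The level was highest in the cluster led by Postn, Tnc and Cthrc1, at 82.7 and 81.8 CPM, which held 1591 of the 3170 control cells and 152 of the 1304 ACD cells. In ACD 616 cells lay in the cluster led by Saa3, Cxcl9 and Ccl19 (41 in control), where Krt10 was at 34.7 and 59.7 CPM, so different clusters made up most of the class in the 2 libraries. Krt1, with which Krt10 pairs in epidermis, was not unexpected in any named class. The epithelial-like cluster held 92.0% and 91.7% of Krt1 UMIs but 19.3% and 38.2% of Krt10 UMIs. Krt10 was also unexpected in chondrocyte-like (19.6 and 20.7 CPM), T/NK/ILC-like (15.03 and 6.85), Schwann-like (33.7 and 24.6), melanocyte-like (16.9 and 21.7) and smooth muscle-like cells (12.6 and 7.44), and in ACD in skeletal muscle-like cells (50.7).

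Krt20 and Krt19 were also unexpected in the clusters that the rule named dermal fibroblast-like. Krt20, known from gut and urinary epithelium, had 178 UMIs in 132 control cells and 97 in 66 ACD cells, 6.63 and 6.21 CPM, with at most 6 UMIs in 1 cell, and no UMI in the epithelial-like cluster. Krt20 also had no UMI in the gate, so the rule counted it on its number of UMIs alone. Krt19 had 52 and 135 UMIs, 1.94 and 8.65 CPM, a log2 ratio of 2.16. Nearly all of them, 45 and 131, were in 1 cluster of 118 control and 100 ACD cells, led by Ccl11, Apod, Cp and Cldn1, at 76.1 (55.5 to 102) and 203 CPM (170 to 241). They came from 16 cells in each library, with 17.8% and 20.6% in 1 cell, and none of the fibroblast markers was among the 10 leading genes of that cluster. Schwann-like cells had 9 Krt19 UMIs in 5 control cells and 64 in 14 ACD cells. The higher Krt19 level in the whole gate (13 and 50 UMIs) came from cells outside the epithelial-like cluster, where the epithelial-like cells had 1 and 0.

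**Figure D5:**
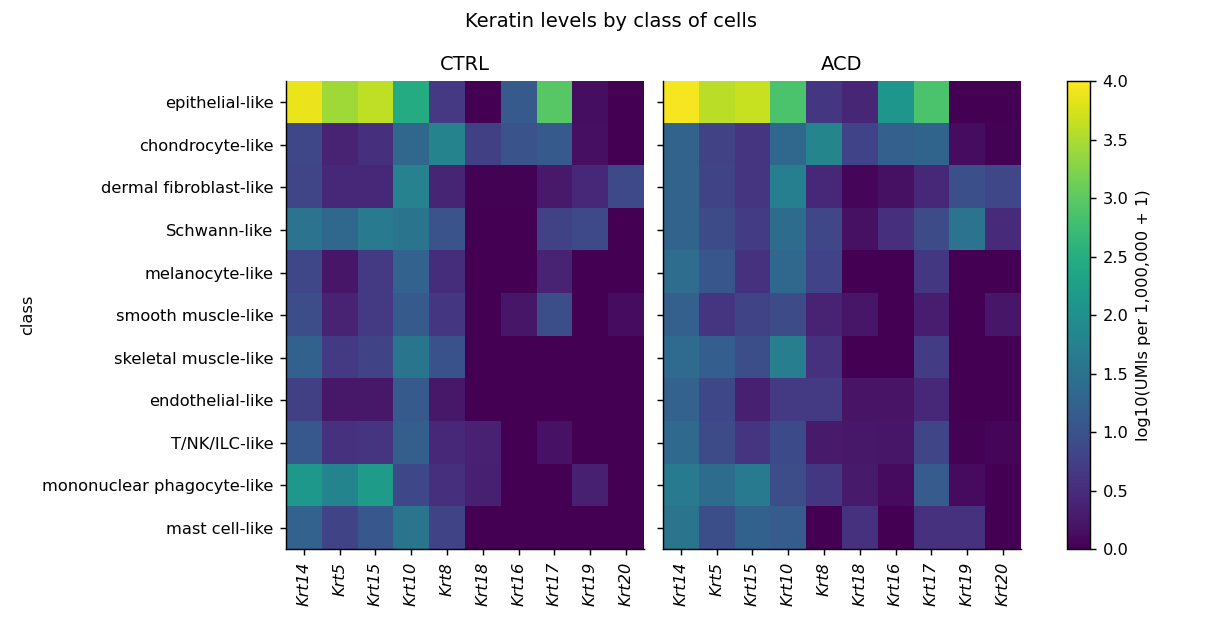
Heatmap of the levels of 10 keratins in 11 cell classes, in CPM on a log color scale, for control and ACD. Outside the epithelial-like cells, Krt8 stands out in chondrocyte-like cells (61.3 and 65.1) and Krt10 in dermal fibroblast-like cells (58.8 and 52.8).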

How the data were processed

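Single cells of ear skin were profiled with the 10x 3′ kit (v2), which reads strand and 1 end per molecule, so levels were not divided by gene length. The authors deposited raw UMI counts for each gene in each barcode (mm10; Cell Ranger 3.1.0 per the submitters' processing notes). The control library held 99037698 UMIs and the ACD library 126566870.

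The cell filter took the UMI limit, printed in the methods as a lower bound, as an upper one; it left more cells than the methods state. Counts were summed per class and scaled per 1000000, with exact Poisson intervals for levels and exact conditional binomial intervals for ratios. A group at 0 was set to 3 UMIs for bounds. Leiden clusters (scanpy 1.11.5, Python 3.11.15) used 2000 variable genes without keratin and mitochondrial genes, 30 components, 20 neighbors and resolution 1. They were named from marker lists with at least 3 detected markers, and a cluster whose 10 leading genes matched another class better was left unnamed, a rule extended after the data were seen. Doublets were not removed; Scrublet marked 4.59% and 3.36% of cells, and leaving them out was an alternative. Promoters are RefSeq and positions GENCODE. Every member with at least 50 UMIs in the gate was named with values. Members and gene lists were chosen with earlier results of these data known. Scripts were tested on simulated counts.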

Additional observations from a re-analysis of the deposited data

How the results depend on the processing

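With 1 library per group, sampling of mice was not measured, and depth limits members under 50 UMIs. No paired analysis was possible because each group has 1 library. In the whole gate Krt1, Krt10 and Krt16 were higher in ACD under all 15 alternatives (Krt16 by log2 1.80 to 5.21), Krt17 and Krt79 were lower under 14 of 15, and Krt14 was lower under 10. The log2 ratio of ACD to control in the keratin share of UMIs was −0.12, was −0.10 with a gate of 2 UMIs and −0.018 with 5, and reversed to 0.63 with all deposited barcodes, 0.29 with a gate of 4 UMIs per 10000, 0.26 in clusters mostly in the gate, 0.24 in the epithelial-like cells and 0.17 without cells rich in stromal UMIs. The gated share of cells had a log2 ratio of −0.21, of −0.06 with all deposited barcodes, −0.53 with the gate per 10000, −0.40 in clusters mostly in the gate and −0.46 in the epithelial-like cells. The suprabasal to basal log2 ratio differed by 1.08 and by 0.45 with all barcodes. Members called higher were 3, beside 2.13% of all genes, and 9 with all barcodes, beside 3.84%. They were also 9 with a minimum of 1 UMI, 5 with a size factor, the mean over cells, thinning or a minimum of 20 UMIs, and 1 with 10 UMIs per 1000000 added. Members called lower were 0, beside 1.17% of all genes, and 1 with thinning and 7 with a minimum of 1 UMI. For settings without a share beside the count, the share over all genes is not given here. Krt77 reversed to −0.49 without the cell with most of its UMIs. The cause was not tested. Unexpected pairs in named classes were 30, and 24 to 33 under 6 alternatives, 1 of them chosen after seeing the data, as were the epithelial-like cells and leaving out the highest cell.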
